A study of Mus musculus with 289 samples.

Results

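Mt1, Mt2 and Mt4 are the metallothionein genes with more than sporadic counts in single-cell transcriptomes of mouse tail epidermis, and they were taken by name, as 3 of the 15019 genes of the count table. The cells came from mice of a mixed CBA C57BL/6 strain that carry Lrig1-EGFP-ires-CreERT2 and Rosa26-fl/STOP/fl-tdTomato, so the Cre is made from the Lrig1 locus of upper hair follicle stem cells and all cells analysed are tomato-positive progeny of that lineage, sorted after one dose of hydroxytamoxifen on the tail. The skin was unwounded and received either vehicle (the label AC) or PRT4165, a small molecule that blocks the ubiquitin ligase activity of Polycomb repressive complex 1. The study asked whether blocking this complex alters transcription in cells that have not met a wound. Each treatment has 2 plates, which are its replicates. By the study's methods the mice were young adults when labelled and each of 2 independent experiments drew on several biological replicates, but how these were divided over the plates is not given. Within a replicate, treatment and plate coincide and cannot be told apart, and the treatment labels also carry codes (PR9 for vehicle, PR12 for PRT4165) that are not explained.

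Metallothioneins are small, cysteine-rich proteins that bind zinc and copper through their thiols, buffer these metals inside the cell and scavenge oxidants. Mt1 and Mt2 are made in most tissues and are induced by zinc through the transcription factor MTF1 and by glucocorticoids. Mt4 is the form of stratified squamous epithelia, known from the differentiating layers of skin and tongue, and Mt3 is the brain form. In the epidermis, basal cells on the basement membrane make Krt14, and cells that leave this layer and differentiate switch to Krt10.

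The coding sequences show why the 3 genes can be compared as one family and still be counted apart. They are printed 5′ to 3′ from the GENCODE M21 annotation of GRCm38, with every in-frame cysteine codon in capitals. All lie on the plus strand of chromosome 8, Mt4 at chr8:94137197-94139031, Mt2 at chr8:94172664-94173568 and Mt1 at chr8:94179082-94180327, with Mt3 between Mt4 and Mt2, and each is protein-coding with 3 exons.
Mt1: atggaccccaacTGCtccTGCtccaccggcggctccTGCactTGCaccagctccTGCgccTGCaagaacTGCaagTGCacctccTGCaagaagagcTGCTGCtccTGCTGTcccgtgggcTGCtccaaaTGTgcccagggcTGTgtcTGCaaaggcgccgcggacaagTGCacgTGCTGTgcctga
Mt2: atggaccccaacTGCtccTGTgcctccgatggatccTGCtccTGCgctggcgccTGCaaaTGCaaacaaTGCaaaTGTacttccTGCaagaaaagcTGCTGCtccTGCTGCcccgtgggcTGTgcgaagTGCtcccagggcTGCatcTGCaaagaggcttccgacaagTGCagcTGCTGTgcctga
Mt4: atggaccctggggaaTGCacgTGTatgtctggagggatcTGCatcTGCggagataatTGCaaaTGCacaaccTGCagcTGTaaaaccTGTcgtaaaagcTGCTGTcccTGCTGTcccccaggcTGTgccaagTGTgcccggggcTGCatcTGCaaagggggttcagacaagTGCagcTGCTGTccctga
Each holds 20 cysteine codons, among 61 codons in Mt1 and Mt2 and 62 in Mt4. The coding sequences of Mt1 and Mt2 were 79.6% identical, those of Mt2 and Mt4 71.96% and those of Mt1 and Mt4 65.6%. No pair of the 3 genes shared a stretch of 31 bases anywhere in their transcripts, and of the values above 0 in the count table, 3 of 234 were not whole for Mt1 and none for Mt2 or Mt4. A value that is not whole marks reads the authors' counter split between transcripts, so reads were hardly shared between these paralogs.

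The promoters are shown because, over all cells, the level of Mt1 correlated more closely with that of Mt2 than either did with Mt4. Each runs from 250 bases before to 50 bases after the RefSeq start (GRCm38.p6, plus strand), with matches to the core of the metal response element (TGCACNC or TGCGCNC, both strands) in capitals.
Mt1: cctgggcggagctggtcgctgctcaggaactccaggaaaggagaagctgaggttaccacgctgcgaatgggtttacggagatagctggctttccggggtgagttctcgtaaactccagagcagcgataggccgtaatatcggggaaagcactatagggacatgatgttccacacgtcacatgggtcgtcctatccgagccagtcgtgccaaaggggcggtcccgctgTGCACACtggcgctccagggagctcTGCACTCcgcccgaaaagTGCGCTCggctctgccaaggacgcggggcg
Mt2: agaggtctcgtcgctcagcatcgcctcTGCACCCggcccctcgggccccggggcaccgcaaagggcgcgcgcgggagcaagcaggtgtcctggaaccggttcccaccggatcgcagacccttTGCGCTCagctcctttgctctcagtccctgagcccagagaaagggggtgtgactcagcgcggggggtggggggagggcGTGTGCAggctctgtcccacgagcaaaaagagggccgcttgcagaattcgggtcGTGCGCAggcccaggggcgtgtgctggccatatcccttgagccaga
Mt4: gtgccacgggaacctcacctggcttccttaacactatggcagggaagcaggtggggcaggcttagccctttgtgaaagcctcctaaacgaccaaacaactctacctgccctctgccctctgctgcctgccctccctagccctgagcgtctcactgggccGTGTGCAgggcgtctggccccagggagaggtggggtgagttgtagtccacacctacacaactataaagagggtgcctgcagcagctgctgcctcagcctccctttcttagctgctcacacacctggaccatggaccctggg
The window of Mt1 (chr8:94178839-94179138) held 3 matches, that of Mt2 (chr8:94172368-94172667) held 4 and that of Mt4 (chr8:94136954-94137253) held 1. Among 32851 mouse promoters of this length, 25.7% held at least 1 match, 1.97% at least 3 and 0.517% at least 4. The RefSeq and GENCODE starts differ for these genes, and a match is a run of letters, not a bound site. The window of Mt4 reaches its coding start, whereas those of Mt1 and Mt2 stop before theirs. The windows therefore do not cover like stretches of the 3 genes, and their match counts are not strictly comparable.

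Of 289 cells, 274 passed the filter (at least 1000 genes detected and at most 50% mitochondrial counts), 70 and 55 from the 2 vehicle replicates and 72 and 77 from the 2 PRT4165 replicates. The kept cells of a plate summed to between 25761756 and 41592716 estimated counts, and the median cell had 141985 counts on vehicle replicate 1 against 429383 to 538754 on the other plates. A cell was called suprabasal where its Krt10 level exceeded its Krt14 level as log2(CPM + 1), where CPM is a count scaled to a fixed library total, and basal in the reverse case. This gave 170 basal and 96 suprabasal cells, with 8 cells in neither class. Of the values above 0, 79.0% were not whole for Krt14, against 1.07% for Krt10 and 18.3% over all genes. Most Krt14 values thus included reads split between transcripts, and how this moved cells between the classes was not tested. The class is a range of a ratio and not a cell type, and 34 of the 266 cells lay within 2 log2 units of the boundary. Other markers followed it, with 5 of 5 other basal markers higher in basal cells and 7 of 7 other suprabasal markers in suprabasal cells. Markers of other compartments differed between the classes too. Upper hair follicle markers summed to 19942 CPM in basal and 73956 CPM in suprabasal cells, bulge markers to 2081 and 706 CPM. Sebaceous gland markers summed to 2868 and 440 CPM. The classes thus held more than epidermal layers, and the word layer below stands for the class. Fibroblast markers summed to between 7.28 and 84.3 CPM on a plate, and the only immune marker in the table, Ptprc, was at 1.11 CPM or less. Pecam1, the only endothelial marker in the table, was at 210 to 609 CPM, and its part in the results was not tested.

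Mt1 was detected in 221 of 274 cells (80.7%, 95% Wilson interval 75.6 to 84.9), Mt2 in 68.6% (62.9 to 73.8) and Mt4 in 73 cells (26.6%, 21.8 to 32.2). These intervals treat cells pooled over plates as independent and do not cover the spread between plates, which was wider. By plate, in the order vehicle replicates 1 and 2 and PRT4165 replicates 1 and 2, Mt1 was found in 74.3%, 74.5%, 76.4% and 94.8% of cells. Mt2 was found in 61.4%, 58.2%, 66.7% and 84.4% of cells, and Mt4 in 28.6%, 14.5%, 25.0% and 35.1%. Mt4 was thus the gene of few cells on every plate, without overlap with the other two. Its summed level was nevertheless in the same range. Per kilobase of transcript, the CPM of the plate sums lay between 508 and 647 for Mt1, between 586 and 927 for Mt2 and between 498 and 813 for Mt4, and the 3 genes could not be ordered by level. Few cells carried Mt4: 5 cells held at least 50% of its counts, against 17 for Mt2 and 25 for Mt1. The cell with most Mt4 counts on each plate was suprabasal and gave 44.5%, 43.1%, 48.6% and 34.7% of the plate's Mt4 counts. Mt3, the remaining gene of the locus in the table, had 45 counts in 4 cells, and fell below the filter of every test. It was found in 0 of 70 cells on vehicle replicate 1, which allows up to 4.29% of cells with a count, and in 0 of 72 on PRT4165 replicate 1, which allows up to 4.17%. These limits, 3 cells of the total, cover counting error and say nothing of cells that express Mt3 below detection.

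**Figure D1:**
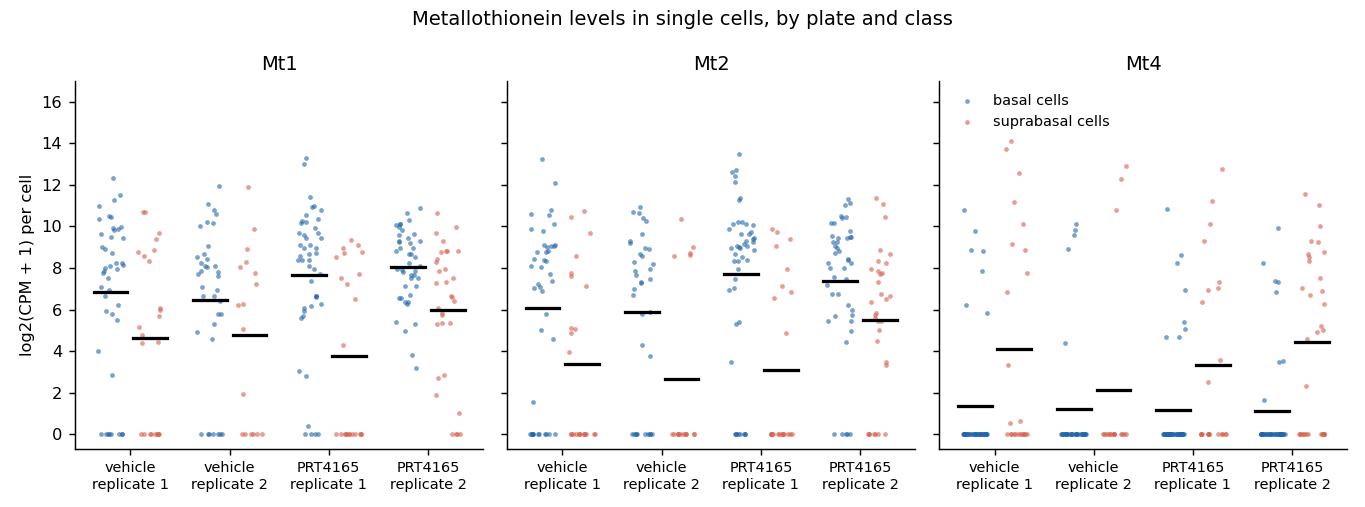
Level of Mt1, Mt2 and Mt4 in each cell as log2(CPM + 1), by plate, with basal cells in blue, suprabasal cells in red and the class mean as a black bar. Mt1 and Mt2 have their mean higher in basal cells and Mt4 in suprabasal cells on all 4 plates, and most basal cells lie at 0 for Mt4.

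Mt4 was higher in suprabasal than in basal cells, whereas Mt1 and Mt2 had lower values there on every plate and did not pass the test. In the sums of basal cells, Mt4 stood at 59.8, 62.8, 18.9 and 52.1 CPM on vehicle replicates 1 and 2 and PRT4165 replicates 1 and 2. In the sums of suprabasal cells of the same plates it stood at 469, 681, 446 and 395 CPM. The lowest suprabasal value was above the highest basal value, as for 2.18% of the genes tested. Within plates the log2 fold change was 3.98 (SE 0.40, edgeR adjusted p = 0.0285), and Mt4 was one of 10 genes past the threshold of 0.05 among 11040 tested (0.0906%), all 10 higher in suprabasal cells. DESeq2 gave another split on the same sums, with 12% of genes past the threshold, 541 of them higher (4.9%) and 788 lower (7.14%), Mt4 among the higher. The other genes called by edgeR were Sprr1a, Dsp, Klk7, Krtdap, Vgll3, Crct1, Olah, Car13 and Perp, among them genes of the cornified envelope (Sprr1a) and of the desmosome (Dsp, Perp). At an unadjusted p under 0.05, 5.96% of genes were higher and 6.13% lower. The call rested on few cells and on all plates. Without the cell with most Mt4 counts on each plate the log2 fold change was 3.12 (adjusted p = 0.0622), and with any 1 plate left out it was 3.68 to 4.18 (adjusted p between 0.0653 and 0.184).

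The share of cells with Mt4 followed the sums less evenly. Mt4 was detected in 16.3%, 13.9%, 17.02% and 18.2% of basal cells and in 50%, 17.6%, 43.5% and 59.4% of suprabasal cells. With every cell thinned to 50000 counts, which left out cells below that depth, the shares were 11.8%, 11.4%, 18.4% and 14.6% of basal and 36.4%, 17.6%, 36.4% and 61.3% of suprabasal cells. Vehicle replicate 2 had only 3 suprabasal cells with Mt4 among 17, yet the highest suprabasal sum. One cell gave 51.4% of that sum, and one cell gave 49.2%, 51.4% and 39.1% of the suprabasal Mt4 counts on vehicle replicate 1 and PRT4165 replicates 1 and 2. The mean level per cell was 2.31 log2 units higher in suprabasal cells (SD of the 4 plate differences 1.03), higher on 4 of 4 plates, with p = 0.125 in an exact two-sided sign-flip test over plates, the smallest it can give. Of the 11040 genes, 9.36% were higher on all 4 plates, and 81 had a mean difference as high as that of Mt4 or higher.

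Mt2 stood at 367, 372, 703 and 498 CPM in basal sums and at 232, 94.2, 95.6 and 251 CPM in suprabasal sums. All 4 basal values were above all 4 suprabasal values, as for 9.87% of the genes tested. Within plates the change was -1.11 on the log2 scale (SE 0.50), with p = 0.0564 before and 0.430 after adjustment by edgeR, and did not pass. It was -0.64 without PRT4165 replicate 1 and -1.53 without vehicle replicate 1. Mt1 stood at 396, 380, 401 and 422 CPM in basal sums and at 168.997, 159.1, 114.1 and 249.7 CPM in suprabasal sums. The groups again did not overlap, and the change was -0.75 (SE 0.35), with p = 0.0676 before and 0.460 after adjustment (-0.90 to -0.51 with a plate left out). Where cells were classed by the other basal and suprabasal markers in place of Krt14 and Krt10, the changes were -2.51 for Mt2 (adjusted p = 0.0616) and -1.83 for Mt1 (adjusted p = 0.0850). Where they were classed by a Krt10 or Krt14 level of at least 1000 CPM they were -2.42 (adjusted p = 0.0985) and -1.53 (adjusted p = 0.144).

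The mean over cells, which gives each cell the same weight whatever its depth, separated the layers more widely. For Mt2 it was 6.05, 5.88, 7.70 and 7.40 in basal cells and 3.37, 2.66, 3.10 and 5.51 in suprabasal cells as log2(CPM + 1), a difference of -3.09 (SD 1.14). For Mt1 it was 6.86, 6.48, 7.66 and 8.05 in basal and 4.65, 4.79, 3.77 and 5.98 in suprabasal cells, a difference of -2.47 (SD 0.98). Both were lower in suprabasal cells on 4 of 4 plates (exact sign-flip p = 0.125 each, the smallest possible), as were 21.5% of the genes tested. Only 13 of 11040 genes had a mean difference as low as that of Mt2 or lower, and 37 one as low as that of Mt1, where the median of all genes was -0.12. The same direction held at equal depth: with cells thinned to 50000 counts, Mt2 was found in 61.8%, 71.4%, 84.2% and 87.8% of basal and 36.4%, 29.4%, 36.4% and 77.4% of suprabasal cells. Mt1 was found in 76.5%, 80%, 84.2% and 97.6% of basal and 59.1%, 58.8%, 40.9% and 77.4% of suprabasal cells. Neither gene was absent from the suprabasal class, and PRT4165 replicate 2 had the highest suprabasal share of both.

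**Figure D2:**
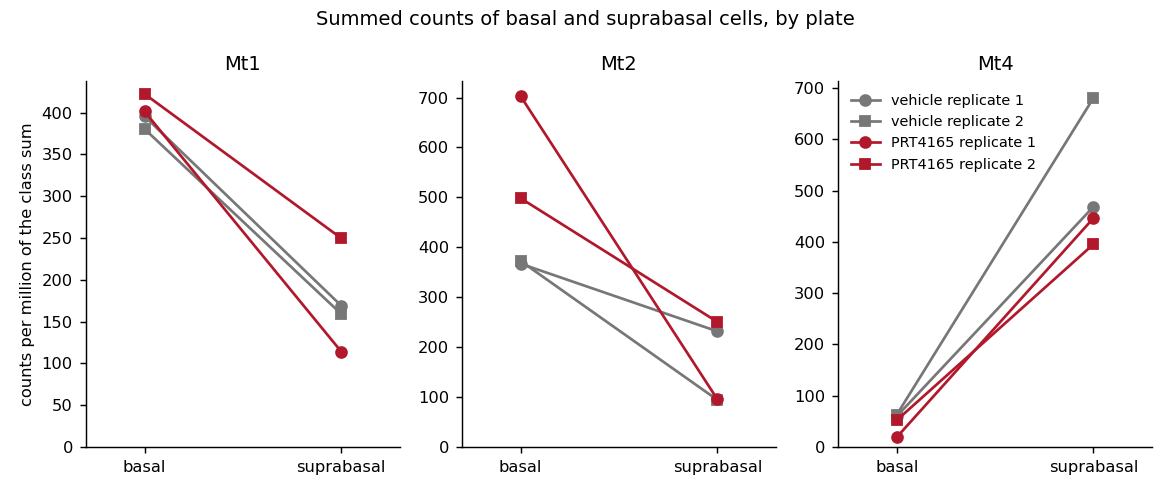
CPM of the summed basal and suprabasal cells of each plate, joined by a line per plate (vehicle grey, PRT4165 red). All 4 lines fall for Mt1 and Mt2, and all 4 climb for Mt4, from at most 62.8 CPM in basal to at least 395 CPM in suprabasal sums.

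**Figure D3:**
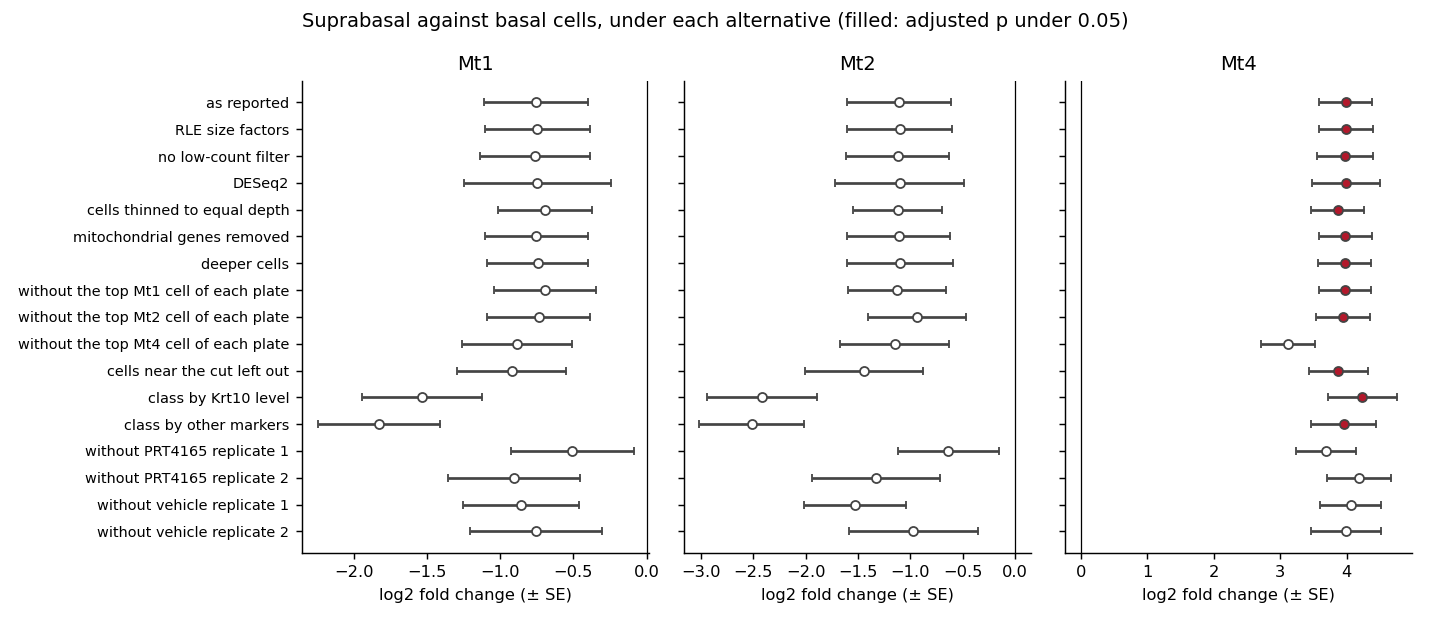
Log2 fold change of suprabasal against basal cells within plates, with its standard error, as reported and under each alternative (filled points have an adjusted p under 0.05). Mt4 stays between 3.12 and 4.23 and Mt1 and Mt2 stay below 0, while the call of Mt4 is lost without the cells with most of its counts and with any plate left out.

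Suprabasal cells were not alike in their metallothioneins. Of the 96, 44 had Mt4 and 52 did not, at median depths of 564144 and 524963 counts. The cells with Mt4 had a mean log2 level of 8.49 for Krt1, the partner keratin of Krt10, against 1.27 in cells without Mt4. Other suprabasal markers did not all go the same way: Krtdap was higher in cells with Mt4 (12.8 against 11.8) and Sbsn lower (6.59 against 8.58). The cells with Mt4 also had more Mt1 (7.22 against 2.95) and more Mt2 (5.82 against 2.27). These are means over cells pooled across plates, and single cells departed from them: the suprabasal cell with the highest Mt1 level and the one with the highest Mt2 level both had no Mt4 count. Split by Krt1, a division chosen after the values were seen and given with no test, 31 of 36 suprabasal cells with at least 100 CPM of Krt1 had Mt4, against 13 of 60 with less. Krt79, a marker of the upper hair follicle and sebaceous duct, went the other way (mean log2 level 3.60 in the cells high in Krt1 and 8.24 in the rest). On the plates in turn, Mt4 was found in 8 of 9, 3 of 4, 6 of 7 and 14 of 16 cells high in Krt1 and in 4 of 15, 0 of 13, 4 of 16 and 5 of 16 of the others.

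Clustering without the metallothioneins gave 7 clusters, and their levels are a description with no test. Mt4 was highest in cluster B (62 cells), which was suprabasal-like, led by Krt10, Calm4, Defb6 and Krt1: it was found in 37 cells at a mean log2 level of 5.28, with plate means from 3.27 to 6.67. Cluster F (25 cells), upper hair follicle-like and led by Sprr1a, Cst6, Klk7 and Defb6, also made Krt10 in every cell but had Mt4 in 4 cells (mean 0.40). F was the lowest cluster for Mt1 and Mt2, with means of 1.43 and 0.79. The median depth in F was 667689 counts, the highest of any cluster, so its low shares did not go with shallow cells. Mt2 was highest in cluster E (25 cells, cycling-like, led by Stmn1, Mki67, Smc2 and Ncapg2), where 25 of 25 cells had it at a mean of 9.90, and was next in cluster A (64 cells, led by Ifitm3, Adh7, Aldh3a1 and Prxl2a) at 8.36. Mt1 was highest in cluster G (23 cells, sebaceous gland-like, led by Scd1, Adh1, Ermp1 and Decr1), where 23 of 23 cells had it at a mean of 8.88, and in E at 8.67. In G, Mt4 was found in 1 cell. These means pool plates that contributed unequally. E drew 3, 3, 12 and 7 cells and G 2, 3, 5 and 13 cells from vehicle replicates 1 and 2 and PRT4165 replicates 1 and 2, so both could be followed on PRT4165 plates only. There, Mt2 averaged 10.1 and 8.49 in E, and Mt1 9.95 and 8.93 in G. For Mt1, E averaged 8.43 and 7.62 and was below A (8.07) on PRT4165 replicate 2.

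**Figure D4:**
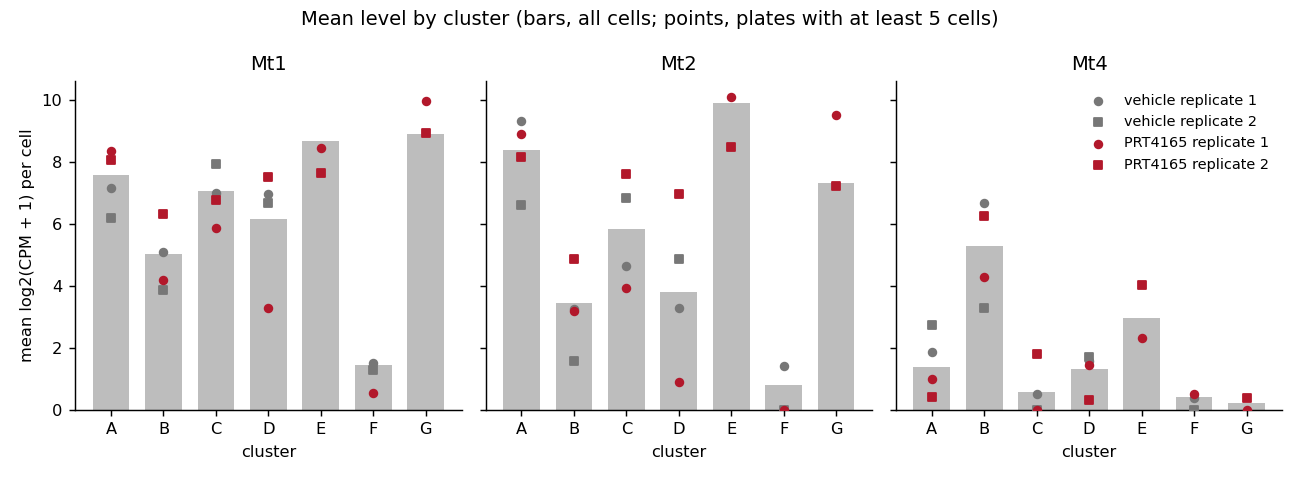
Mean log2(CPM + 1) of Mt1, Mt2 and Mt4 in clusters A to G, as bars over all cells of a cluster and points for each plate with at least 5 of its cells. Mt4 has its highest bar in the suprabasal-like cluster B (5.28), whereas Mt1 and Mt2 are lowest in F (1.43 and 0.79).

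Of the 170 basal cells, 22 had Mt1 without Mt2, 6 had Mt2 without Mt1, 13 had neither and the rest had both. Of the 96 suprabasal cells, 18 had Mt1 alone of the pair, 3 had Mt2 alone, 28 had neither and 47 had both. Of the 73 cells with Mt4, 69 also had Mt1 or Mt2, where 44 of all 274 cells had neither. By class, 27 of 28 basal and 41 of 44 suprabasal cells with Mt4 had Mt1 or Mt2. In basal cells this was near the share among all cells of the class. Across the cells of a plate, which share a library preparation but differ in depth (from 9796 to 3029822 counts over all cells), the Pearson correlation of Mt1 with Mt2 on log2(CPM + 1) averaged 0.695 (0.672 to 0.730 over 4 plates), and each was the other's most similar gene among 6232 compared. Next for both came Fth1, the heavy chain of the iron store ferritin, at 0.604 with Mt1 and 0.589 with Mt2. The list went on with Rpl37 and Rpl41, which encode ribosomal proteins, for Mt1 and with Ifitm3, Ftl1 (ferritin light chain) and Rpl37 for Mt2. Mt4 had other neighbours: Mettl7a1 (0.526), Ptgs1, which encodes cyclooxygenase 1 (0.455), Calm4, a calmodulin-like protein of differentiating keratinocytes (0.430), Serpinb3b (0.412) and Stfa3 (0.410). Its correlation with Mt1 averaged 0.205 and with Mt2 0.152. Within suprabasal cells these were 0.564 and 0.421, and within basal cells 0.0986 and 0.158.

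The treatments were compared first on sums over all cells. Mt1 stood at 355 and 347 CPM on vehicle and 279 and 334 CPM on PRT4165 plates (log2 fold change -0.16, SE 0.45, edgeR adjusted p = 0.997). Mt2 stood at 474 and 299 against 444 and 372 CPM (0.07, SE 0.49, adjusted p = 0.997), and Mt4 at 324 and 256 against 198 and 227 CPM (-0.43, SE 0.48, adjusted p = 0.997). The change of Mt4 was -1.22 with cells thinned to equal depth (SE 0.45, p = 0.0266 before and 0.882 after adjustment by edgeR), -0.08 without vehicle replicate 1 and -0.71 without vehicle replicate 2. None passed the threshold, nor did any of the 12791 genes tested by edgeR (0%), of which 630 had an unadjusted p under 0.05, while DESeq2 called 1.34% of genes, none of the 3 among them. One cell of vehicle replicate 1, with neither Krt14 nor Krt10, held 42.2% of that plate's Mt2 and 31% of its Mt1 counts. Without the cell with most Mt1 counts on each plate, the log2 fold changes were 0.09 for Mt1 and 0.44 for Mt2 (adjusted p = 0.998 each).

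The mean over cells gave Mt1 and Mt2 higher values under PRT4165. Over all cells Mt2 averaged 5.07 and 4.85 on vehicle and 6.02 and 6.67 on PRT4165 plates, and Mt1 6.08 and 5.92 against 6.29 and 7.21, with both PRT4165 plates above both vehicle plates for each, as for 25.6% of 12791 genes. The depth of the plates differed too, vehicle replicate 1 being the shallowest. With cells thinned to 50000 counts, Mt1 was found in 69.5% and 72.2% of vehicle and 67.2% and 88.9% of PRT4165 cells, so that the plates overlapped. Mt2 was found in 50.8% and 57.4% against 65.6% and 83.3% at that depth, without overlap, and in 59.7% and 54.5% against 58.2% and 69.3% at 20000 counts, with overlap. Mt4 was found in 22.03% and 12.96% against 24.6% and 34.7% at 50000 counts, without overlap and opposite in direction to its sums. At 20000 counts its plates overlapped (25.4% and 12.7% against 19.4% and 32%), as did its means over all cells (2.38 and 1.43 against 1.83 and 2.47). In basal cells the mean of Mt4 was lower under PRT4165, at 1.35 and 1.19 against 1.16 and 1.10, without overlap. For Mt1 and Mt2 the gap in basal cells was wider. Mt2 averaged 6.05 and 5.88 against 7.70 and 7.40, a difference of 1.58, and Mt1 6.86 and 6.48 against 7.66 and 8.05, a difference of 1.18. Neither pair of plates overlapped, which was also true of many genes: both PRT4165 plates lay above both vehicle plates in basal cells for 25.7% of 12071 genes. The exact permutation p was 0.333, the smallest that 2 against 2 plates allow. These means include cells without a count. Mt1 was found in 81.4% and 80.6% of basal cells on vehicle and in 91.5% and 100% on PRT4165 plates. Among basal cells with an Mt1 count, the mean was 8.43 and 8.04 against 8.37 and 8.05, with overlap. The gap of Mt1 thus lay in the share of cells with a count. Among basal cells with an Mt2 count, the mean was 8.40 and 8.14 against 9.28 and 8.35, also with overlap. In the summed basal cells edgeR gave a log2 change of 0.86 for Mt2 (SE 0.42, p = 0.0764 before and 0.885 after adjustment) and 0.24 for Mt1 (SE 0.42, adjusted p = 0.988). Mt4 had a value of the opposite sign, -0.63 (SE 0.76, adjusted p = 0.975), which ranged from -1.53, with PRT4165 replicate 2 left out, to -0.08, with PRT4165 replicate 1 left out. Of 12071 genes, edgeR called 0 (0%), with 710 at an unadjusted p under 0.05, and no other tool was run within a class. With the replicate number as a block 1 gene passed, and without PRT4165 replicate 1 or PRT4165 replicate 2 there were 15 and 41, none of the 3 members among them. The difference was therefore not shown to exceed the spread between plates.

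The makeup of the basal cells moved with the same plates. Cells of the cycling-like cluster E made up 4.65% and 8.33% of basal cells on vehicle and 21.3% and 13.6% on PRT4165 plates, and those of the sebaceous gland-like cluster G 4.65% and 8.33% against 10.6% and 27.3%. On PRT4165 replicates 1 and 2, Mt2 averaged 10.1 and 8.49 in E and 9.51 and 7.22 in G, where all basal cells had 7.70 and 7.40. Mt1 averaged 8.43 and 7.62 in E and 9.95 and 8.93 in G, where all basal cells had 7.66 and 8.05. On PRT4165 replicate 2, G was thus not above basal cells for Mt2, nor E for Mt1. Without the cells of E and G, the basal means were 5.80 and 5.53 against 6.64 and 7.24 for Mt2, a difference of 1.28. For Mt1 they were 6.60 and 6.10 against 7.10 and 7.71, a difference of 1.05. The plates still did not overlap, as was so in this direction for 25.7% of genes with all basal cells. That share was not computed without these clusters, whose removal was chosen after the data were seen. The part of makeup in the difference was not tested. Over all cells without these clusters the difference was 0.94 for Mt2 and 0.43 for Mt1, and the plates overlapped for Mt1.

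In suprabasal cells, Mt1 averaged 4.65 and 4.79 on vehicle and 3.77 and 5.98 on PRT4165 plates, Mt2 3.37 and 2.66 against 3.10 and 5.51, and Mt4 4.12 and 2.12 against 3.35 and 4.43. The PRT4165 plates lay on either side of the vehicle plates for Mt1, so plates of one treatment differed more than the treatments. In summed suprabasal cells, edgeR gave log2 fold changes of 0.06 for Mt1 (SE 0.78), -0.04 for Mt2 (SE 0.89) and -0.54 for Mt4 (SE 0.62), each with an adjusted p of 0.999, and called 0 of 10398 genes (0%, with 589 at an unadjusted p under 0.05). Suprabasal cells made up 35.8% and 32.1% of classed cells on vehicle and 32.9% and 42.1% on PRT4165 plates (exact permutation p = 0.667). The change between the layers did not differ detectably between treatments: the interaction was -0.32 for Mt1 (SE 0.78), -0.89 for Mt2 (SE 1.0) and 0.27 for Mt4 (SE 0.79) on the log2 scale, each with an adjusted p of 1, and 0 of 11040 genes passed (0%, with 457 at an unadjusted p under 0.05).

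**Figure D5:**
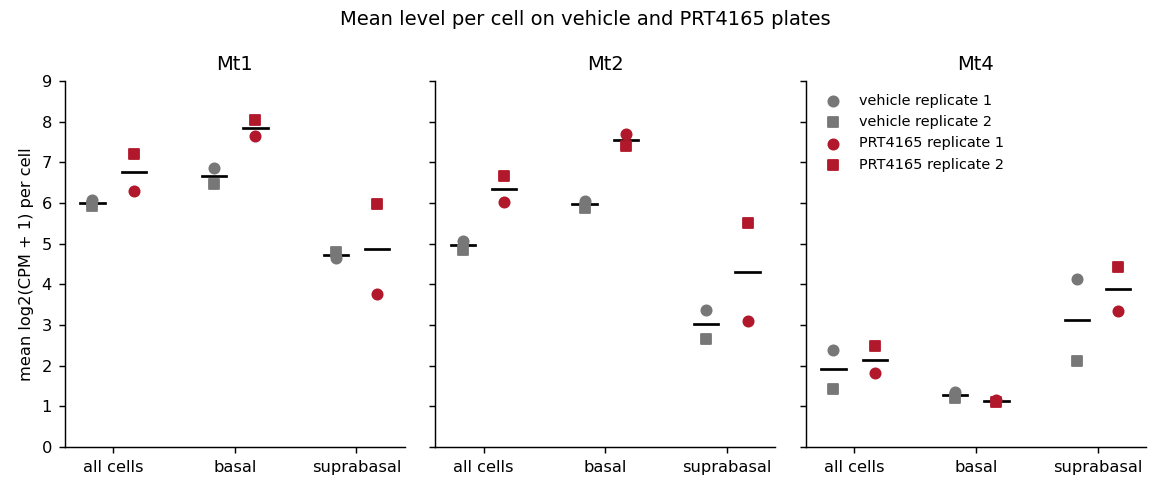
Mean log2(CPM + 1) per cell on the 2 vehicle plates (grey) and the 2 PRT4165 plates (red), over all, basal and suprabasal cells, with a bar at the mean of each pair. In basal cells both PRT4165 plates lie above both vehicle plates for Mt1 and Mt2, and in suprabasal cells the pairs overlap for all 3 genes.

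Genes that handle the metals the metallothioneins bind were compared between the layers too, where 0.0906% of all genes passed, so that a list with 0 calls does not stand apart from the rest. Of 25 zinc genes (transporters and Mtf1, the zinc sensor that drives Mt1 and Mt2), 18 were in the table and 16 were tested between the layers, with 0 past the threshold and a median log2 change of 0.00, where all genes had -0.22. The smallest p was that of the importer Slc39a10, at 233 CPM in basal and 63.2 CPM in suprabasal sums over all plates (log2 fold change -2.41, SE 0.88, adjusted p = 0.336). It was followed by Slc39a2 (1.62, adjusted p = 0.434) and Slc30a7 (-0.92, adjusted p = 0.729). Mtf1 (-1.26, adjusted p = 0.800) and the zinc exporter Slc30a1 (0.80, adjusted p = 0.842) were at 24.8 CPM or less in both layers. Of 12 copper genes tested, 0 passed (median -0.03), and the 3 of smallest p were all higher in suprabasal sums. The importer Slc31a1 stood at 71.6 CPM in basal and 293 CPM in suprabasal sums (2.61, SE 0.38, adjusted p = 0.0619), Slc31a2 at 19.4 and 61.7 CPM (2.60, adjusted p = 0.177) and the copper pump Atp7a at 9.18 and 37.5 CPM (2.82, adjusted p = 0.351). Of 9 glucocorticoid response genes tested, 0 passed (median -0.20), led by the kinase gene Sgk1 (1.05, adjusted p = 0.382), Per1 (-1.73, adjusted p = 0.559) and Errfi1 (1.51, adjusted p = 0.635). The receptor gene Nr3c1 was at -0.10 (adjusted p = 0.960).

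Between the treatments, the 3 lists held 0 genes past the threshold in all, basal or suprabasal cells. Over all cells the median log2 change was -0.02 for zinc, 0.02 for copper and -0.47 for glucocorticoid genes, where all genes had -0.02. The zinc gene of smallest p was Slc30a7, a transporter of the secretory pathway, at 117 and 59.8 CPM on vehicle and 31.9 and 24.7 CPM on PRT4165 plates (log2 fold change -1.66, SE 0.65, adjusted p = 0.987). Mtf1 was at 0.89 (SE 1.05), Slc30a1 at 1.02 (SE 0.74) and Nr3c1 at -0.39 (SE 0.55), with adjusted p = 0.997 each. In basal cells, where Mt2 had its largest value between treatments, the zinc genes of smallest p were Slc30a4 (3.52, SE 0.91, adjusted p = 0.746) and Slc39a2 (-2.60, SE 0.72, adjusted p = 0.746), which pointed in opposite directions, and the glucocorticoid list had a median of 0.55 against 0.03 for all genes.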

How the data were processed

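Single tomato-positive cells were sorted into plates and sequenced by a modified Smart-seq2 protocol. The authors quantified reads with Salmon 0.13.1 on the mouse transcriptome (mm10, GRCm38) and deposited estimated counts per gene and cell, not scaled, of which 18.3% of the values above 0 were not whole. Salmon, Seurat and R 4.0.3 are named in the submitters' processing notes. All 289 columns were matched to a cell by title. Intervals cover counting error over cells only, not the spread between plates. There were no molecular identifiers, and no doublet caller was run because wells held 1 sorted cell.

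Cells were kept as in the study (at least 1000 genes, at most 50% of counts from 13 mitochondrial genes). Counts were summed per plate, or per plate and class, and rounded. Low genes were dropped by filterByExpr and TMM set the scaling. All remaining genes were fitted by quasi-likelihood in edgeR 4.0.16 (R 4.3.3), and p-values were adjusted after Benjamini and Hochberg, called under 0.05. The standard error is the log2 change divided by the root of F. The layers were compared with the plate as a block, without Krt10 and Krt14. The coefficient of variation was 76.9% between plates of a treatment over all cells. In the layer comparison it was 89.5%, taken after plate differences were removed by the block. Small changes were therefore beyond this design. The division of animals over the plates is not stated, so p-values for treatment measure the spread between plates. Those for the layers and the interaction measure how far the layer change varied from plate to plate. DESeq2 1.42.0 was an alternative. Values over plates were compared by exact permutation or sign-flip tests. Cells were clustered with Leiden (leidenalg 0.10.2; 2000 genes, 15 components, 15 neighbours, resolution 1, metallothioneins left out), and a cluster was named from its markers only. The replicate numbers are labelled as batches and so pair the plates; the deviations of same-numbered plates from their group means correlated at r = 0.0207 over 12791 genes. The scripts were tested on simulated counts.

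The members, lists and rules were chosen with earlier results of these data known. Named genes are the members, Mt3, Mtf1, Slc30a1, Nr3c1, per list those past the threshold or up to 3 of smallest p, and per member the 5 of highest mean within-plate correlation among genes in at least 20% of cells, 1 of which is not reported here. The alternatives were scaling, filter, tool, depth, class rule, replicate block and plates left out. Removal of the cells with most counts of a member, the Krt1 split, the clusters and removal of clusters E and G were chosen after the data were seen.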

Additional observations from a re-analysis of the deposited data

Results flagged for a closer look

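The share of cells with Mt1 at equal depth differed between the layers most on PRT4165 replicate 1. Suprabasal minus basal, it was -43.3 percentage points there, against -17.4 on vehicle replicate 1, -21.2 on vehicle replicate 2 and -20.1 on PRT4165 replicate 2, a gap beyond Dixon's limit for 4 values. Chance gives such a gap in about 1 of 20 sets of values. The rule was applied to the mean level and the share at equal depth of every member, so at least 1 such gap is likelier than that. The direction was the same on all 4 plates.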

How the results depend on the processing

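Mt1 and Mt2 kept lower and Mt4 higher values in suprabasal cells under every alternative run, and between treatments no member passed under any. In the layer comparison the call of Mt4 was lost on the mean level per cell (2.31, a test that cannot pass), without the cells with most of its counts (3.12) and with any plate left out (3.68 to 4.18), where fewer samples enter. The share of tested genes past the threshold there, 0.0906%, became 12.04% by DESeq2, 1.56% with other class markers, 0.850% at equal depth, 0.314% without the low-count filter, 0.438% without cells near the boundary, 0.381% by Krt10 level, 0.0459% among deeper cells and 0 to 0.0543% with a plate left out; the cause was not tested. Between treatments over all cells that share went from 0% to 1.34% by DESeq2, and the change of Mt1 turned to 0.0188 at equal depth, 0.0906 and 0.0188 without the cells with most Mt1 and with most Mt2 counts, and lay between -0.35 and 0.0137 with a plate left out (turning without vehicle replicate 1 or PRT4165 replicate 1). That of Mt2 lay between -0.32 and 0.62, turning without vehicle replicate 2. With the replicate number as a block, 0.00828% of genes (1 gene) passed in basal cells, the change of Mt1 in suprabasal cells was -0.0625 and that of Mt2 over all cells 0.14; the block changed no other direction or call. With a plate left out, 0 to 0.318% of genes passed in basal cells and 0 to 0.0349% in suprabasal cells, where the lone plate of a treatment was assumed to vary like the others. There, Mt1 ranged from -0.71 to 0.55 and Mt2 from -1.01 to 0.95. The interaction ranged from -0.93 to 0.33 for Mt1, -1.91 to 0.18 for Mt2 and -0.44 to 1.005 for Mt4. PRT4165 minus vehicle, the share of cells with Mt1 ranged from -3.64 to 18.03 percentage points, the mean level of Mt4 from -0.23 to 0.72 and the suprabasal share from -1.09 to 8.16 percentage points. The layer call of Mt4 held at equal depth (3.86) and among deeper cells (3.97).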

Other observations

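The cell with most Mt2 counts on vehicle replicate 1 had counts of neither Krt14 nor Krt10. It held 14660 CPM of Mt2, 8085 CPM of Mt1 and 704 CPM of Mt4, on 5331 detected genes. The cells with most Mt2 counts on the other plates were basal, at 793 to 6796 CPM, which were not always the highest CPM of their plate. The cells with most Mt4 counts on the 4 plates held 3055 to 13445 CPM of it, each with Mt1 (348 to 929 CPM) and Mt2 (42.8 to 385 CPM).

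Of the 34 cells within 2 log2 units of the class boundary, 18 lay on the suprabasal side and had Mt4 in 8 cells, Mt1 in 13 and Mt2 in 11. The 16 on the basal side had Mt4 in 4 cells, Mt1 in 12 and Mt2 in 7. At this boundary Mt1 and Mt2 did not divide as they did over whole classes: the mean log2 level of Mt1 was 5.45 on the suprabasal and 4.95 on the basal side, and that of Mt2 was 5.14 and 3.32. That of Mt4 was 2.87 and 1.35, as over whole classes higher on the suprabasal side.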
